A study of Mus musculus with 36 samples.

Results

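Methionine and taurine metabolism of mouse liver was followed through 10 genes, Mat1a, Gnmt, Ahcy, Bhmt, Cbs, Cth, Cdo1, Csad, Slc6a6 and Baat. They were named as a list and matched by symbol, and all 10 were among the 13862 genes of the RNA-seq table. All 10 also passed the filter on low values, which 13838 genes passed.

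In the methionine cycle, methionine is turned into S-adenosylmethionine, which gives its methyl group away and leaves S-adenosylhomocysteine and then homocysteine. Homocysteine is either methylated back to methionine or passed through transsulfuration to cysteine. The liver oxidizes cysteine to taurine, takes taurine up from blood, and couples it to bile acids.

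Livers came from male C57BL/6 mice and male B6C3F1/Ctrl mice, a cross of C57BL/6 females with C3H/He males, that drank 0.05% (wt/vol) phenobarbital (PB) or vehicle for 91 d. PB activates the nuclear receptor CAR and promotes liver tumors in mice, and the comparison of strains asks how its effects differ between a resistant and a susceptible one. RNA-seq and DNase-seq each held 4 vehicle mice (numbered 1, 2, 3 and 5) and 5 PB mice (numbered 1 to 5) per strain, which makes 18 libraries per assay. The C57BL/6 mice were supplied by Taconic at 9 to 11 weeks of age and the B6C3F1 mice by Charles River at 4 to 5 weeks, so strain, supplier, age, source of PB and the study that treated the animals cannot be told apart. RNA levels are counts scaled to library size (CPM) by the trimmed mean of M values (TMM), from 23766046 to 30307693 counted reads per library. DNase-seq libraries held 7011739 to 58079490 reads within DNase I hypersensitive sites (DHSs), the lowest in B6C3F1 vehicle mouse 3.

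Labels were first checked against marker genes. Summed CPM of 7 hepatocyte markers, led by Alb, ran from 65982 to 89036 across the 18 mice, whereas 5 sinusoidal endothelial markers summed to at most 387.8, 5 Kupffer cell markers to at most 306.8, 5 stellate cell markers to at most 473.6 and 5 cholangiocyte markers to at most 49.94. Cyp2b10, the cytochrome P450 gene most used to follow PB, averaged 8.725 ± 1.62 CPM (SD, n = 4) in C57BL/6 vehicle mice and 1194 ± 229 CPM (SD, n = 5) with PB. In B6C3F1 mice its means were 11.75 ± 5.68 CPM (SD, n = 4) and 1519 ± 232 CPM (SD, n = 5). Cyp2c55 rose from 17.3 to 336.2 CPM in C57BL/6 and from 23.65 to 481.2 CPM in B6C3F1. Every PB mouse stood above every vehicle mouse of its strain for both genes.

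Levels of the 10 genes were compared per kb of exon (mean CPM per kb). In C57BL/6 vehicle mice Gnmt was highest at 1504 ± 82.3, followed by Bhmt at 1146 ± 48.4, Mat1a at 1000 ± 68.8 and Cdo1 at 938 ± 54 (SD, n = 4). Mat1a and Cdo1 overlapped, and the other neighbours in this order did not. Cth (390 CPM per kb), Baat (213), Cbs (188) and Ahcy (109) lay in between, and Csad (38.4) and Slc6a6 (24.7) closed the order. Csad held rank 8 in B6C3F1 vehicle mice at 77.4 ± 19.3 CPM per kb, overlapping Ahcy at 59.7 ± 5.55 (SD, n = 4). It was last in both PB groups, at 20.4 ± 5.42 in C57BL/6 and 18 ± 6.08 in B6C3F1 (SD, n = 5), where it overlapped Slc6a6. Bhmt ranked behind Cdo1 and Mat1a in both PB groups and overlapped Mat1a there. Near-identical copies bear on the levels of Bhmt and Ahcy. Stretches of at least 76 bases, the read length, with at least 95% identity elsewhere in the genome covered 90.4% of the Bhmt mRNA and 82% of the Ahcy mRNA, and none of the other 8. Only uniquely mapped reads were counted, so the levels of these genes are uncertain.

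**Figure D1:**
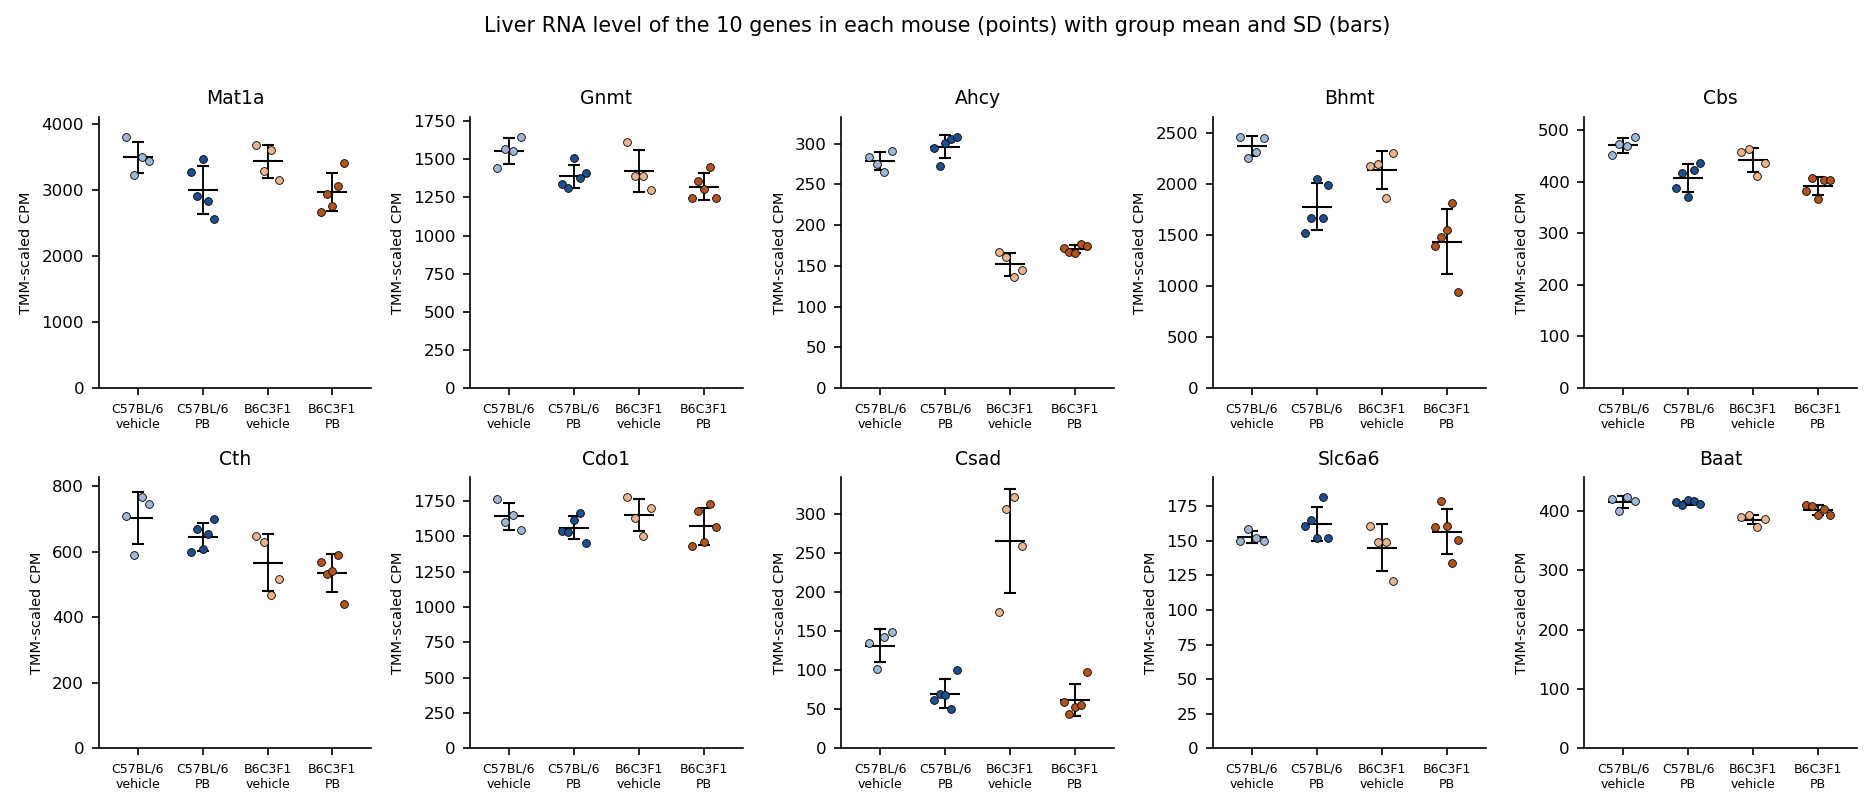
TMM-scaled CPM of each of the 10 genes (y axis, from 0) in each mouse (points) of the 4 groups (x axis), with the group mean and SD as bars (n = 4 vehicle, n = 5 PB). Csad was lower in every PB mouse than in every vehicle mouse of its strain, and Ahcy, counted without its near-identical copy, was lower in every B6C3F1 mouse than in every C57BL/6 mouse.

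With PB, Csad was the member that moved furthest in both strains, and its fall in B6C3F1 mice was the member change that met the cutoffs used here (|log2 fold change [FC]| of at least 0.58 and false discovery rate [FDR] of at most 0.01, here termed called). In C57BL/6 mice 0 of 10 members were called by limma, 0 by edgeR and 0 by DESeq2, beside 0.874% of all genes tested. At an unadjusted p under 0.05 there were 5 members, beside 12.4% of all genes. In B6C3F1 mice 1 of 10 members was called, beside 2.00% of all genes, and 5 had an unadjusted p under 0.05, beside 23.4%. The vehicle and PB groups did not overlap for 3 members (Bhmt, Cbs and Csad) in C57BL/6, beside 7.64% of all genes, and for the same 3 in B6C3F1, beside 9.05%. The median log2 FC of the 10 members was -0.14 in C57BL/6 and -0.09 in B6C3F1, beside -0.01 over all genes in each strain. A lower level in bulk liver can mean fewer cells of a type or less RNA per cell, which cannot be told apart.

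Between strains, Ahcy was the 1 member called in vehicle mice, beside 3.63% of all genes, and again the 1 member called in PB mice, beside 5.25%. Both calls were lower in B6C3F1, and both were lost (0 members called) when Ahcy was summed with its near-identical copy Gm4737. Strains did not overlap for 3 members with vehicle (Ahcy, Csad and Baat), beside 22.2% of all genes, and for 3 members with PB (Ahcy, Cth and Baat), beside 18.8%. Member medians were -0.10 with vehicle and -0.06 with PB on the log2 scale, against -0.00 and -0.01 over all genes. Cell markers also moved with strain. All 5 Kupffer cell markers had negative log2 FC in B6C3F1 (median of -0.33 with vehicle and -0.39 with PB), as had 6 of 8 pericentral hepatocyte markers (-0.33 and -0.34), of which Oat and Slc1a2 were called in both. Of 8 periportal markers 5 were lower (-0.16 and -0.19), and the part of these markers in the member differences was not tested. Each vehicle group and each PB group serves in more than 1 of these comparisons, so they share samples. The strain difference in PB response (interaction) was called for 0 of 10 members and for 0% of all genes by limma. edgeR and DESeq2 also called 0 members. At an unadjusted p under 0.05 there was 1 member, Csad, beside 7.90% of all genes.

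**Figure D2:**
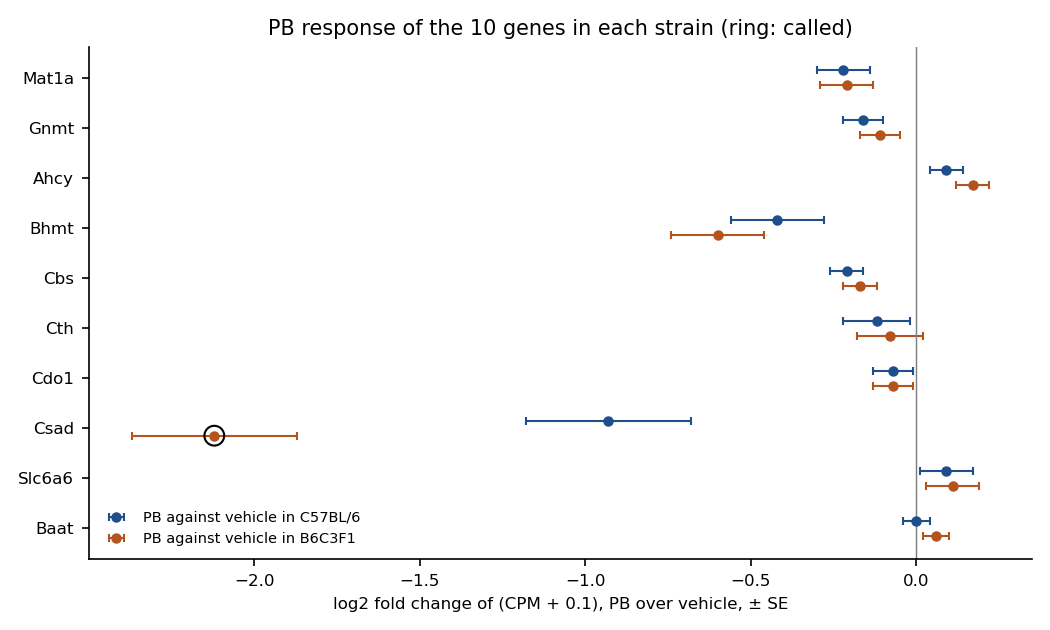
Log2 FC of PB over vehicle (x axis, on log2(CPM + 0.1), bars ± SE) for each of the 10 genes (y axis) in C57BL/6 (blue) and B6C3F1 (orange) mice, with a ring around the called gene. Csad lies at -0.93 and -2.12, Bhmt at -0.42 and -0.60, and the other 8 genes lie within -0.22 to 0.17.

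Of the methionine cycle genes, Mat1a encodes the liver enzyme that makes S-adenosylmethionine. It ran from 3217 to 3798 CPM in C57BL/6 vehicle mice and from 2550 to 3462 CPM with PB, with ranges of 3153 to 3676 and 2665 to 3404 in B6C3F1. The groups overlapped in both strains, with log2 FC of -0.22 (FDR 0.22, lower than the vehicle mean in 5 of 5 PB mice) and -0.21 (FDR 0.11, 5 of 5). Gnmt, whose enzyme uses S-adenosylmethionine to methylate glycine, ran from 1440 to 1646 CPM in C57BL/6 vehicle mice and from 1310 to 1510 CPM with PB. Its PB log2 FC were -0.16 in C57BL/6 (FDR 0.25) and -0.11 in B6C3F1 (FDR 0.33), below the vehicle mean in 5 of 5 and 4 of 5 PB mice. Neither gene was called between strains.

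Bhmt encodes the methyltransferase that returns homocysteine to methionine with betaine as the methyl donor. Its levels were 2464, 2260, 2318 and 2451 CPM in the C57BL/6 vehicle mice and 1523, 1670, 2048, 1668 and 1997 CPM in the C57BL/6 PB mice. All 5 PB mice were below all 4 vehicle mice, with log2 FC of -0.42 ± 0.14 (SE) and FDR 0.17. In B6C3F1 the vehicle mice had 2180, 2196, 1867 and 2307 CPM and the PB mice 1390, 1479, 1548, 1817 and 946.9 CPM. Again the groups did not overlap, with PB mouse 5 lowest and PB mouse 4 closest to vehicle. The log2 FC was -0.60 ± 0.14 (SE) with FDR 0.013 (lower in 5 of 5), past the FC cutoff and short of the FDR cutoff. Quantile normalization gave -0.70 with FDR 0.0028, and leaving out B6C3F1 PB mouse 4 gave -0.69 with FDR 0.0032, both of which would be calls, and an FDR cutoff of 0.05 would call the value above. The estimate was under the FC cutoff with edgeR, DESeq2 and sample weights (-0.57 each), without B6C3F1 vehicle mouse 5 (-0.56) and without PB mouse 5, the lowest (-0.46). Over the settings with all mice the FDR ran from 0.00025 to 0.09. The interaction log2 FC was -0.18 ± 0.20 (SE) with FDR 0.88, so a strain difference in this response was not shown. Bhmt2, the neighbouring gene that recycles homocysteine with another donor, had PB log2 FC of -0.05 (FDR 0.83, 4 of 5 below the vehicle mean) and 0.03 (FDR 0.79, 4 of 5 above). Sequences on chromosomes 18 and 4 match the Bhmt mRNA over 1872 bases each, at 99.36% and 98.67% identity.

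Ahcy encodes the hydrolase that splits S-adenosylhomocysteine. Its levels were 283.5, 275.1, 264.6 and 290.3 CPM in the C57BL/6 vehicle mice, and 166.7, 160.4, 136.0 and 144.6 CPM in the B6C3F1 vehicle mice. Every B6C3F1 mouse was thus below every C57BL/6 mouse. With PB the levels were 294.6, 272.1, 301.0, 306.1 and 308.1 CPM in C57BL/6 and 171.6, 166.4, 165.9, 176.3 and 173.7 CPM in B6C3F1, and the strains again stood apart. Ahcy was lower in B6C3F1 by a log2 FC of -0.88 ± 0.06 (SE) with vehicle (FDR 4.6e-10, 4 of 4 mice) and -0.79 ± 0.05 (SE) with PB (FDR 2.8e-10, 5 of 5 mice). PB itself gave 0.09 (FDR 0.58, 4 of 5 above the vehicle mean) and 0.17 (FDR 0.048, 5 of 5), neither of them a call.

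The Ahcy count cannot be fully separated from that of a near-identical copy. Gm4737 is a single-exon gene on chromosome 16 (chr16:46152985-46155077, minus strand, mm10) that matches Ahcy (chr2:155059310-155074497, minus strand, 10 exons) over 2086 bases at 99.66% identity. Of the 2468 windows of 76 bases in the Ahcy mRNA, 1743 (70.6%) also occur in Gm4737 without a mismatch. Gm4737 went the other way between strains, with means of 435.3 ± 22.0 CPM in C57BL/6 and 583.0 ± 34.5 CPM in B6C3F1 vehicle mice (SD, n = 4) and of 454.6 ± 27.2 and 601.5 ± 26.7 CPM with PB (SD, n = 5). Its log2 FC was 0.42 ± 0.06 (SE) with vehicle (FDR 1.8e-05, higher in 4 of 4) and 0.41 ± 0.05 (SE) with PB (FDR 4.4e-06, 5 of 5), under the FC cutoff. Both genes together averaged 713.7 ± 28.35 and 734.9 ± 48.4 CPM in C57BL/6 and B6C3F1 vehicle mice (SD, n = 4), and 750.9 ± 40.0 and 772.3 ± 30.3 CPM with PB (SD, n = 5). These sums overlapped between strains, with log2 FC of 0.04 in both comparisons (FDR 0.64 with vehicle and 0.56 with PB), and no member was then called between strains. What differed was the share of the sum counted at Ahcy, from 37.5% to 40.4% in C57BL/6 vehicle mice and from 20.1% to 21.4% in B6C3F1 vehicle mice, and with PB from 38.8% to 40.95% and from 21.3% to 22.6%. A further match on chromosome 1, over 2083 bases at 98.66% identity, lies in no annotated gene and is not in the sum. A lower Ahcy level and a different assignment of reads between the copies cannot be told apart from these counts.

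**Figure D3:**
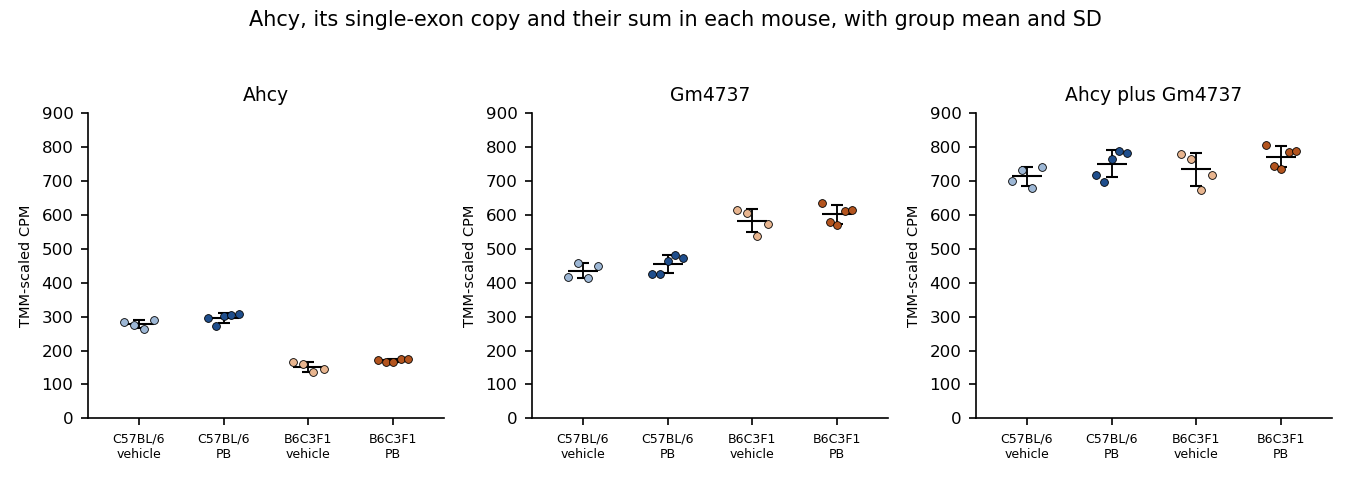
TMM-scaled CPM (y axis) of Ahcy, of its single-exon copy Gm4737 and of their sum in each mouse (points) of the 4 groups (x axis), with mean and SD as bars. Ahcy was lower and Gm4737 higher in B6C3F1 than in C57BL/6 mice, while the sums of the strains overlapped.

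In transsulfuration, Cbs encodes the synthase that joins homocysteine and serine to cystathionine. The C57BL/6 vehicle mice had 452.2, 473.7, 469.1 and 486.8 CPM and the PB mice 387.1, 417.2, 369.6, 423.7 and 435.4 CPM, without overlap. Its B6C3F1 levels were 457.1, 464.0, 410.9 and 435.8 CPM with vehicle and 381.8, 407.7, 366.2, 402.7 and 402.6 CPM with PB, also without overlap, although vehicle mouse 3 at 410.9 and PB mouse 2 at 407.7 nearly met. The differences were small, with log2 FC of -0.21 ± 0.05 (SE; FDR 0.025, lower in 5 of 5) and -0.17 ± 0.05 (SE; FDR 0.041, 5 of 5), and were not called. Cth encodes the lyase that releases cysteine from cystathionine. It had 709.4, 588.9, 765.7 and 744.0 CPM in C57BL/6 and 646.3, 630.6, 468.7 and 517.6 CPM in B6C3F1 vehicle mice. C57BL/6 mouse 2 was low and overlapped the other strain. With PB the C57BL/6 mice ran from 598.1 to 699.9 CPM and the B6C3F1 mice from 441.2 to 589.7 CPM, without overlap. Log2 FC between strains were -0.32 (FDR 0.044, 4 of 4 below the C57BL/6 mean) with vehicle and -0.28 (FDR 0.036, 5 of 5) with PB, neither called.

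In taurine synthesis, Cdo1 encodes the dioxygenase that oxidizes cysteine to cysteine sulfinate. It was among the more stable members, with group means of 1642 ± 94.6 and 1562 ± 82.5 CPM in C57BL/6 and of 1653 ± 115.1 and 1572 ± 130.1 CPM in B6C3F1 (SD, vehicle n = 4, PB n = 5). All 4 groups overlapped, and the log2 FC with PB was -0.07 in both strains (FDR 0.75 and 0.53, below the vehicle mean in 4 of 5 and 3 of 5 PB mice).

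Csad encodes the decarboxylase that turns cysteine sulfinate into hypotaurine, the precursor of taurine. Its levels were 134.5, 101.1, 142.2 and 149.4 CPM in the C57BL/6 vehicle mice and 61.95, 70.08, 68.05, 50.33 and 100.5 CPM in the C57BL/6 PB mice. PB mouse 5 (100.5) came within 1 CPM of vehicle mouse 2 (101.1), and otherwise the groups were well apart. In B6C3F1 the vehicle mice had 175.1, 307.2, 322.0 and 259.4 CPM and the PB mice 59.22, 43.68, 53.42, 55.16 and 97.77 CPM. Here the lowest vehicle mouse stood far above the highest PB mouse, PB mouse 5. The library of vehicle mouse 3 stood apart from the rest of its group, with a chi-square per gene of 50.9 to 66.8 against the other 3 libraries and of 15.95 to 19.6 among those. Its pericentral marker sum was 5930 CPM against 8776 to 9245 CPM, and it was the highest of its group for Csad and the lowest for Ahcy, Bhmt, Cbs, Cth, Cdo1 and Baat. Without it the Csad log2 FC with PB was -2.01 (FDR 0.00034), and the same members were called in each comparison. Csad fell with PB in B6C3F1 with log2 FC of -2.12 ± 0.25 (SE), 4.35-fold (FDR 5.6e-05, lower in 5 of 5 mice), and was called in all 15 settings that kept all mice and in all 18 that left out 1 mouse. In C57BL/6 the log2 FC was -0.93 ± 0.25 (SE), 1.90-fold (FDR 0.066, lower in 5 of 5 mice), which missed the FDR cutoff. No other setting called it there, with FDR from 0.017 to 0.29.

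The Csad groups with vehicle also differed by strain. All 4 B6C3F1 mice were above all 4 C57BL/6 mice, with log2 FC of 0.99 ± 0.26 (SE) and FDR 0.016 (4 of 4), which was not called. DESeq2 gave 1.01 with FDR 0.0023, and the FDR was 0.0068 without B6C3F1 vehicle mouse 1 (log2 FC 1.18) and 0.0066 without B6C3F1 PB mouse 5 (log2 FC 0.99), all of which would be calls, as would the value above with an FDR cutoff of 0.05. Over all settings that kept all mice the FDR ran from 0.0023 to 0.029. With PB the strains overlapped, with log2 FC of -0.20 ± 0.23 (SE) and FDR 0.56 (4 of 5 below the C57BL/6 mean). The interaction was -1.19 ± 0.35 (SE) with FDR 0.39, so that the larger fall in B6C3F1 did not pass the test of the difference itself. Csad rested on 1166 to 9146 reads per library. In B6C3F1 the summed hepatocyte markers ran from 83034 to 89036 CPM with vehicle and from 66401 to 81322 CPM with PB, without overlap, and their part in the Csad, Bhmt and Cbs differences was not tested. In C57BL/6 the same sums overlapped (68736 to 85723 and 65982 to 74768 CPM). Alb makes up most of these sums, and the 7 markers did not move together. Their median log2 FC with PB was -0.00 in B6C3F1, 3 higher and 4 lower, and -0.17 in C57BL/6, 1 higher and 6 lower.

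Slc6a6 encodes the taurine transporter of the cell membrane. Its group means lay between 144.9 and 162.2 CPM, all 4 groups overlapped, and PB log2 FC were 0.09 (FDR 0.76, 3 of 5 above the vehicle mean) and 0.11 (FDR 0.42, 4 of 5). Baat encodes the acyltransferase that couples taurine or glycine to bile acids. It varied least among mice, from 409.7 to 417.7 CPM in C57BL/6 PB mice and from 392.2 to 409.4 CPM in B6C3F1 PB mice. These ranges did not overlap, nor did those of the vehicle mice (399.8 to 422.8 and 373.3 to 392.2 CPM), yet the differences were small, with log2 FC of -0.11 with vehicle (FDR 0.054, lower in 4 of 4) and -0.04 with PB (FDR 0.34, 5 of 5).

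Across the 18 mice, as a description, the closest pairs of members by Pearson r of log2 CPM were Ahcy with Baat (0.82, n = 18), Gnmt with Bhmt (0.73), Ahcy with Cth (0.70) and Cth with Baat (0.70). Csad was negatively related to Slc6a6 (-0.54) and Baat (-0.53). These values join 4 groups, and group differences enter them. Among 12181 genes with a mean of at least 1 CPM, the genes most like Csad were Slc16a11, a monocarboxylate transporter family gene (r = 0.90, n = 18), Hip1r (0.88) and March2 (0.87). Slc16a11 had means of 6.11 and 3.8 CPM in C57BL/6 and of 8.24 and 2.69 CPM in B6C3F1, vehicle before PB. Among those most like Ahcy were Acp1 and Rps3a1 (each 0.98, n = 18). Acp1 had means of 37.4 and 39.1 CPM in C57BL/6 and of 21.4 and 23.7 CPM in B6C3F1.

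Chromatin around the genes was read from the 105 DHSs whose nearest transcription start site (TSS) was that of a member, 10 over a TSS, 2 in a promoter, 14 in exons, 36 in introns and 43 intergenic. With PB, 0 of 105 were called in C57BL/6, beside 0.367% of all 98170 DHSs, and 0 in B6C3F1, beside 0.190%, by limma within each strain. edgeR called 0 in either strain, and 6 had an unadjusted p under 0.05 in each, beside 7.76% and 9.16% of all DHSs. Vehicle and PB groups did not overlap at 1 DHS in C57BL/6, beside 3.15% of all DHSs, and at 2 in B6C3F1, beside 3.53%. The interaction called 0 of 105 by limma, beside 0% of all DHSs, and 0 by edgeR, with 1 at an unadjusted p under 0.05, beside 5.39%. The strains differed more. With vehicle 8 of 105 were called, 6 higher and 2 lower in B6C3F1, beside 10.5% of all DHSs, and groups did not overlap at 28, beside 27.8%. The called share of all DHSs depended on single mice. It rested on 10281 calls, which fell to 4980 without C57BL/6 vehicle mouse 2 and to 5120 without mouse 1. With all mice, 47 had an unadjusted p under 0.05, beside 39.6%. edgeR called 10 of 105, a count not compared with all DHSs, since that share is not given here.

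Csad has 2 annotated TSSs on the minus strand of chromosome 15 (gene chr15:102176997-102205052, mm10). A DHS lay over the downstream TSS (chr15:102188950-102189159), with normalized counts of 280.8, 325.3, 248.4 and 314.2 in C57BL/6 vehicle mice and 243.5, 260.8, 290.0, 238.7 and 274.8 with PB. The B6C3F1 values were 236.5, 237.0, 317.4 and 270.4 with vehicle and 222.5, 236.6, 279.1, 261.3 and 196.6 with PB. All 4 groups overlapped there, with PB log2 FC of -0.16 ± 0.12 (SE; FDR 0.84, below the vehicle mean in 5 of 5) and -0.15 ± 0.15 (SE; FDR 0.82, 4 of 5). An exonic DHS near the 3' end of Csad (chr15:102178267-102178647) was higher in B6C3F1 vehicle mice, at 267.4 ± 46.2 against 163.8 ± 27.5 (SD, n = 4), with log2 FC of 0.70 ± 0.16 (SE; FDR 0.0053, 4 of 4). The call held in every setting with all mice and was lost without C57BL/6 vehicle mouse 1, 2 or 5 or without B6C3F1 vehicle mouse 1 or 5 (0.62 to 0.72). An intergenic DHS, singled out after its values were seen, lay 15.3 kb downstream of the same TSS (chr15:102173645-102173852). It had 25.34, 28.08, 33.21 and 43.27 in B6C3F1 vehicle mice and 4.42, 17.78, 3.17, 7.95 and 19.48 with PB. The groups did not overlap, but counts were low, 1 read being worth 0.994 to 3.69 in these libraries. Its log2 FC was -1.79 ± 0.52 (SE) with FDR 0.18 (lower in 5 of 5), and a fit to all 18 libraries would call it (FDR 0.0086). A pseudocount of 10 brought the estimate to -1.11 (FDR 0.12), and FDR in the other settings ran from 0.065 to 0.41. In C57BL/6 the log2 FC was -0.22 ± 0.22 (SE) with FDR 0.9 (4 of 5 below the vehicle mean), and the interaction was -1.57 with FDR 0.91. An intronic DHS of Csad (chr15:102183304-102183461), also named after its values were seen, had 106.6, 93.03, 232.5 and 171.7 in B6C3F1 vehicle mice and 73.69, 75.23, 93.57, 81.47 and 65.52 with PB. PB mouse 3 just overlapped vehicle mouse 2, with log2 FC of -0.86 ± 0.24 (SE) and FDR 0.16 (below the vehicle mean in 5 of 5). Its log2 FC in C57BL/6 was -0.39 ± 0.26 (SE) with FDR 0.81 (3 of 5).

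**Figure D4:**
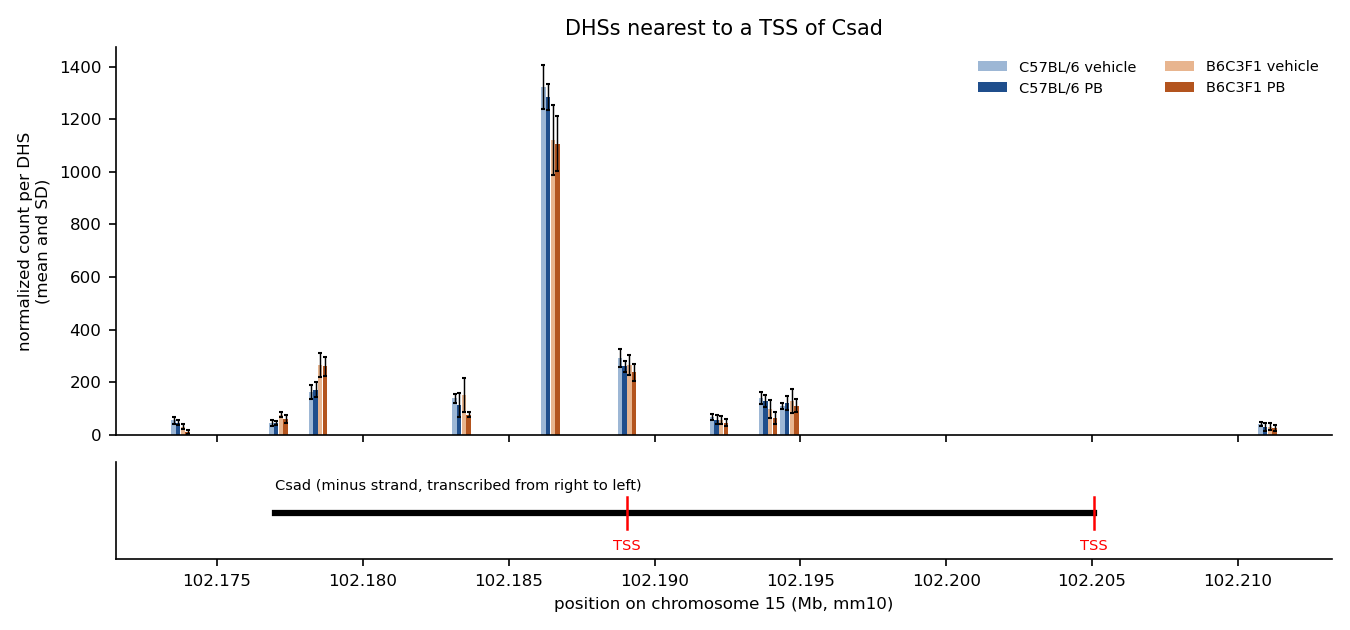
Normalized DNase-seq counts (y axis, bars are group means and whiskers SD, n = 4 vehicle and n = 5 PB) of the 10 DHSs nearest to a TSS of Csad, by position on chromosome 15 (x axis, mm10), with the gene and its 2 TSSs drawn underneath. The DHS over the downstream TSS had similar means in all groups, 239.2 to 292.2.

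The other DHSs called between strains in vehicle mice lay at Cth, Baat, Mat1a and Slc6a6. A promoter DHS of Cth, 1.15 kb upstream of its TSS (chr3:157925964-157926453), had 1245, 1159, 978.9 and 978.2 in C57BL/6 and 470.9, 458.1, 413.3 and 482.7 in B6C3F1. The groups were far apart, with log2 FC of -1.25 ± 0.10 (SE; FDR 3.8e-07, lower in 4 of 4). Downstream of Cth, DHSs at 132 kb (3.02 ± 0.37, FDR 3.7e-05, higher in 4 of 4) and 48.1 kb (1.13 ± 0.22, FDR 0.0014, 4 of 4) were more accessible in B6C3F1. Counts at 132 kb were low in C57BL/6 vehicle mice, 5.41 to 7.83 against 52.66 to 62.3 in B6C3F1. At Baat an intronic DHS (chr4:49505220-49505631) had log2 FC of 0.98 ± 0.18 (SE; FDR 0.0011, 4 of 4), and another DHS, 25.6 kb downstream of the TSS, 0.63 ± 0.09 (SE; FDR 0.00015, 4 of 4). The latter (chr4:49480467-49481385) overlaps the annotated span of the neighbouring gene Acnat1 (chr4:49443532-49481315). It was assigned to Baat by nearest TSS and classed as intergenic. At Mat1a a DHS 10.7 kb upstream had 0.67 ± 0.17 (SE; FDR 0.0095, 4 of 4), a call lost with quantile normalization (0.62), with all 18 libraries in the fit (0.67), and whichever vehicle mouse was left out (0.56 to 0.72). At Slc6a6 a DHS 5.21 kb upstream was lower, at -0.78 ± 0.16 (SE; FDR 0.0028, 4 of 4), a call lost without C57BL/6 vehicle mouse 1 (-0.75) or 2 (-0.72). By limma in the main fit, no DHS of Ahcy, Bhmt, Gnmt, Cbs or Cdo1 was called in any of the 4 comparisons. More member DHSs were called between strains with edgeR and with quantile normalization, and their genes are not given here. In the main fit the smallest FDR between strains was 0.041 at Ahcy, 0.016 at Gnmt, 0.085 at Cbs and 0.021 at Cdo1. At Bhmt it was 0.00072, at a DHS that missed the FC cutoff.

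RefSeq promoter windows, 250 bases upstream of a TSS, were matched for 5 members (Ahcy, Bhmt, Cbs, Csad with both TSSs, and Gnmt). Each was searched on both strands for AGGTCA, the core letters that many nuclear receptors bind, and for CCAAT and TATAAA. Of 32851 promoters of this length 14% held AGGTCA, 33.8% CCAAT and 12.4% TATAAA. The Bhmt window held 3 matches of AGGTCA and 1 of CCAAT, those of Ahcy and Gnmt 1 of each, that of Cbs 2 of CCAAT, and the upstream Csad window 1 of CCAAT. No window held TATAAA. A match is a description of letters, not a site or a cause. The windows of the called members, Csad (downstream TSS, partly within its DHS) and Ahcy, are shown 5' to 3' on the minus strand of GRCm38.p6 (RefSeq), with matches in capitals to compare the letters beside these TSSs. In Ahcy the capitals read ATTGG and TGACCT, the other-strand forms of CCAAT and AGGTCA. The Csad window (chr15:102189044-102189293) holds none of these letters and 55.6% G and C, and the Ahcy window (chr2:155074498-155074747) 52.8%, beside a median of 52.4% over all promoters.
Csad: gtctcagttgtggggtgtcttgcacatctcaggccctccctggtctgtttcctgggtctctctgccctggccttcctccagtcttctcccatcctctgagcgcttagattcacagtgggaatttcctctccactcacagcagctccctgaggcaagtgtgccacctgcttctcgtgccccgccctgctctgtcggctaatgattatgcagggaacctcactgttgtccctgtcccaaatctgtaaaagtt
Ahcy: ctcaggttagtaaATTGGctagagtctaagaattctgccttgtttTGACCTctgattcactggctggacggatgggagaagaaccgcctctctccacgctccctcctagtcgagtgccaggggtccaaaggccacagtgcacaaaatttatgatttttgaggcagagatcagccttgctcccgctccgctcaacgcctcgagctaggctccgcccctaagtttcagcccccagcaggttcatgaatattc

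Of 110 further genes in related lists, 99 were tested. With PB, 4 were called in C57BL/6, all higher, and 8 in B6C3F1, 7 higher and 1 lower, beside 0.874% and 2.00% of all genes, with medians of 0.04 and 0.02 on the log2 scale beside -0.01 over all genes. edgeR called 4 and 8, in B6C3F1 not all the same genes. All 4 in C57BL/6 and 6 of the 8 in B6C3F1 came from the list of bile acid synthesis, conjugation and transport. Abcc4, an efflux transporter of conjugates, rose from 4.16 ± 0.905 to 36.9 ± 4.15 CPM in C57BL/6 (log2 FC 3.14) and from 3.73 ± 0.743 to 31.9 ± 10.5 CPM in B6C3F1 (3.02), and Abcc3, another, rose in both (0.71 and 0.75). The bile acid uptake gene Slc10a2 (0.62 and 0.59) rose in both strains. Ephx1, an epoxide hydrolase, was called in C57BL/6 alone (0.59), and Slco1a4, an organic anion transporter (0.77), and Slc51b (1.34, at 0.131 CPM with vehicle) in B6C3F1 alone. Slc51b was not called by edgeR or with a pseudocount of 0.5 (0.61) or 1 (0.37). Acnat2, a relative of Baat, fell in B6C3F1 from 55.7 ± 6.40 to 24.2 ± 7.59 CPM, with log2 FC of -1.24, a call lost when the B6C3F1 mice were fitted alone. Inmt, an N-methyltransferase that uses S-adenosylmethionine (0.74), and Papss2, which activates sulfate (0.59), rose in B6C3F1. Papss2, Ephx1 and Slc10a2 stood close to the FC cutoff, and quantile normalization took the calls of Papss2 (0.55) and Ephx1 (0.55) and, in B6C3F1, of Slc10a2 (0.58). Leaving out single mice also took calls of these 3 genes. The interaction called 0 of 99 by limma and 0 by edgeR, so neither tool showed a gene of these lists to respond differently by strain. At an unadjusted p under 0.05 there were 14, beside 7.90% of all genes.

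Between strains 4 of the 99 were called with vehicle and 2 with PB, beside 3.63% and 5.25% of all genes, and edgeR called 4 and 3. Nnmt, which methylates nicotinamide with S-adenosylmethionine, was lower in B6C3F1 (log2 FC of -1.26 and -1.34), and Cyp46a1, a cholesterol hydroxylase, was higher at 73.35 ± 10.5 against 1.49 ± 0.242 CPM with vehicle (5.53, and 4.76 with PB). Slc10a2 (0.61) and Chac1, a glutathione-degrading enzyme (1.82, at 0.583 CPM in C57BL/6), were higher with vehicle. The Chac1 call was lost when the vehicle mice were fitted alone and the Slc10a2 call with quantile normalization (0.57). Of 20 folate and choline genes limma called 0 and edgeR 0 in every comparison, with 3 and 6 at an unadjusted p under 0.05 for PB in C57BL/6 and B6C3F1, beside 12.4% and 23.4% of all genes. Of 10 other taurine and hypotaurine genes both tools also called 0, with 3 and 6 at that p, and their median log2 FC with PB were 0.09 and 0.19 beside -0.01 over all genes.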

How the data were processed

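Frozen liver was profiled by stranded total RNA-seq and DNase-seq. For RNA the authors mapped reads to mm10 with STAR 2.4.0f1, kept unique ones, counted them by strand over RefSeq genes and deposited TMM-scaled CPM (edgeR 3.12.1), entered here as signal because columns do not sum to what CPM would. For DNase the authors gave each DHS a normalized count, also entered as signal (Bowtie2 2.1.0, MACS2 2.1.1.20160309, DiffBind 1.16.3, peaks in at least 3 samples). Reads of both strains were mapped to mm10, the C57BL/6 reference genome. The authors also mapped the B6C3F1 DNase reads to an imputed C3H genome. They reported no differences in shared read pairs and few pairs unique to either alignment. No such check is described for RNA. All values in both tables were whole reads within 0.1 (100%), from which depths were taken. limma 3.58.1 (R 4.3.3; trend, robust) was fitted to log2(CPM + 0.1) of all 18 RNA samples, for genes with CPM of at least 0.4 in 3 samples of a group, and to log2(count + 1) of the DNase samples compared (all 18 for the interaction). log2 FC understate the change of low genes. FDR is Benjamini-Hochberg over all genes or DHSs. On recovered reads, edgeR 4.0.16 called 116 and 275 genes for PB in C57BL/6 and B6C3F1, 479 and 731 between strains with vehicle and PB, and 0 for the interaction (limma 121, 277, 503, 727 and 0), and DESeq2 1.42.0 was also run. Near-identical copies were sought with blastn 2.17.0+. Other pseudocounts, filters, scalings, fits, cutoffs, weights, a replicate block and leaving out each mouse were tried, and summing Ahcy with Gm4737 was added after seeing the data. The 10 members, list genes called (at most 6 per list and comparison), the 3 genes most alike each called member (1 of them is not reported here), and DHSs over a member's TSS or called were named by rule. Members and lists were chosen with earlier results of these data known. The design assumed CPM, and the test is the one written for it.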

Additional observations from a re-analysis of the deposited data

Results flagged for a closer look

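Among 80 groups of 4 or 5 mice looked at, 40 of RNA levels and 40 of TSS DHSs, a single mouse stood far from the others of its group in 2 cases. Chance alone gives this in about 1 in 20 groups. Csad was at 97.8 CPM in B6C3F1 PB mouse 5, above the other 4 mice of its group (43.68 to 59.22 CPM), a gap of 0.713 of the range of the group. The same mouse was the lowest of its group for Bhmt (946.9 CPM), Cth (441.2 CPM) and Gnmt (1244 CPM), and the highest for Mat1a (3404 CPM). Its pericentral marker sum was 10421 CPM against 8199 to 8626 CPM, and its library differed from the other 4 by a chi-square per gene of 31.5 to 48.15, against 13.8 to 39.5 among those. Without this mouse the PB log2 FC of Csad in B6C3F1 was -2.30 (FDR 1.4e-05). RNA-seq and DNase-seq carry the same animal numbers. In DNase-seq this mouse was the lowest of its group at the DHS over the Bhmt TSS, with a normalized count of 563.1 against 1162 to 1413. The DHS over the TSS of Slc6a6 (chr6:91683826-91684269) had a normalized count of 885 in C57BL/6 PB mouse 1, against 696.4 to 745.4 in the other 4, a gap of 0.740 of the range. Neither cause was tested.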

How the results depend on the processing

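Directions of the Csad, Bhmt, Cbs and Cth differences with PB, and of the Csad and Cth differences between strains, held in every setting run. Ahcy was the exception: summed with Gm4737, its strain log2 FC was 0.04 with vehicle and 0.04 with PB, and members called between strains went from 1 to 0 in both.

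Members called for PB in B6C3F1 were 2 with quantile normalization or FDR of at most 0.05, adding Bhmt, beside 264 and 415 of all genes. Members called between strains with vehicle were 2 with DESeq2 or FDR of at most 0.05, adding Csad. The looser FDR cutoff called 803 of all genes there, against 503 in the main fit, and DESeq2 also called more than the main fit. Leaving out 1 mouse gave 1 to 2 members in each comparison, beside 214 to 304 and 358 to 523 of all genes.

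Genes called with no minimum FC were 221 and 617 for PB in C57BL/6 and B6C3F1, and 1364 and 2191 between strains with vehicle and PB. Fitting only the samples compared gave 182 for PB in B6C3F1, and FDR of at most 0.05 gave 803 between strains with vehicle. The interaction called 3 genes with a pseudocount of 0.5 or 1, 15 with DESeq2, 1 with sample weights, 4 with FDR of at most 0.05, and 0 to 3 when 1 mouse was left out (1 without C57BL/6 PB mouse 4, 2 without B6C3F1 vehicle mouse 1, 3 without B6C3F1 PB mouse 2). DHSs called for PB with all 18 samples in the fit were 156 in C57BL/6 and 630 in B6C3F1. Leaving out 1 mouse gave 59 to 306 for PB in B6C3F1, lowest without PB mouse 3, and 4980 to 12557 between strains, lowest without C57BL/6 vehicle mouse 2 (5120 without mouse 1). Depth was lowest in B6C3F1 vehicle mouse 3 of DNase-seq, where 1 read was worth 3.69 normalized counts.

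Signs turned in these uncalled values near 0, whose cause was not tested. Interaction: Mat1a -0.07 (quantile) and -0.01 (weights), Gnmt -0.04 (quantile), Cdo1 0.00 (edgeR, DESeq2), Slc6a6 -0.01 (weights). Cdo1 between strains: -0.02 with vehicle and -0.02 with PB (median centring), -0.08 with PB (quantile). Baat with PB in C57BL/6: 0.00 (DESeq2). Leaving out 1 mouse, Mat1a ran from -0.06 to 0.02 and -0.07 to 0.04 between strains with vehicle and PB and -0.05 to 0.06 for the interaction, Cdo1 from -0.03 to 0.05, -0.03 to 0.04 and -0.05 to 0.03, Slc6a6 from -0.13 to 0.00, -0.10 to 0.00 and -0.06 to 0.08, Cth from -0.05 to 0.12 for the interaction, and Baat from -0.02 to 0.01 with PB in C57BL/6.

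Animal numbers do not pair vehicle mice with PB mice. Same-numbered vehicle and PB mice correlated from -0.122 to 0.0647 in RNA and -0.202 to 0.244 in DNase. Of these, 3 of 16 correlated best with their own number. With the number as a replicate block, PB called 102 and 208 genes and 403 and 58 DHSs in C57BL/6 and B6C3F1, the interaction 1 gene, and the Mat1a interaction was -0.02.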
